A study of Homo sapiens with 16 samples.

Results

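AU-rich element binding proteins recognise stretches of A and U in the 3′ untranslated region (3′ UTR) of messenger RNAs. The 8 genes described here, ZFP36, ZFP36L1, ZFP36L2, KHSRP, HNRNPD, ELAVL1, TIA1 and TIAL1, were chosen by name as a protein class, and all 8 were found by symbol among the 18332 genes of the deposited table. RNA-seq was done on 2 established breast cancer lines, MDA-MB-231 and then MDA-MB-468, both ER negative per the labels. For 48 hours the flasks of a line held either 5 mM glucose, called low here, or 25 mM, called high. Each of the 4 groups had 4 replicates, which makes 16 libraries. Per the study's methods all groups were first conditioned in low glucose and then kept in serum-free medium, and MDA-MB-231 was maintained in DMEM but MDA-MB-468 in RPMI, so a difference between the lines cannot be told apart from their maintenance medium. Mannitol served as an osmotic control in some of the study's experiments, and no label gives it for these groups, so added glucose and added osmolarity cannot be told apart. The question was how exposure to high glucose, as in diabetes, alters expression in each line. No label says that replicates were separate cultures, so p-values measure only the spread between these samples.

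An AU-rich element is a short repeat of the pentamer AUUUA, common in transcripts for cytokines, growth factors and immediate early proteins, and the protein that binds it sets how long the transcript lasts and how well it is translated. The ZFP36 family of zinc finger proteins recruits the CCR4-NOT deadenylase complex, so that a bound transcript loses its poly(A) tail and is degraded. KHSRP (KSRP) also promotes decay through the exosome, HNRNPD (AUF1) mostly promotes decay but can act in the opposite way on some transcripts, and ELAVL1 (HuR) protects bound transcripts and supports their translation. TIA1 and its paralog TIAL1 (TIAR) repress translation and are core components of stress granules. Several of these proteins bind the 3′ UTR of their own transcript.

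The AU-rich letters of the members' own 3′ UTRs are shown because 6 of the 8 transcripts carry the heptamer TATTTAT, written as DNA, that the ZFP36 family prefers. For each member a window of 30 bases is given 5′ to 3′ on the gene's strand from GRCh37, with each ATTTA in capitals. It is the window with the most pentamers among those centred on a heptamer, or on a pentamer where there was no heptamer. Other stretches of the 3′ UTR were not searched, so a window need not be the densest. All windows lie in annotated 3′ UTR sequence of 1 transcript per gene.

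ZFP36 (chr19:39899820-39899849, plus strand): caatgggccctttATTTAtgacgactttat
ZFP36L1 (chr14:69255053-69255082, minus strand): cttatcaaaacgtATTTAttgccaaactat
ZFP36L2 (chr2:43450587-43450616, minus strand): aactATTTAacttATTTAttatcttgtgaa
ELAVL1 (chr19:8026724-8026753, minus strand): tttATTTAtacctATTTAtgtATTTATTTA
TIA1 (chr2:70439722-70439751, minus strand): tcagatacaatgtATTTATTTAaaagattc
TIAL1 (chr10:121335067-121335096, minus strand): ggaaaatgaaaatATTTAttttaaaaattg
HNRNPD (chr4:83274722-83274751, minus strand): tgtagccattaagATTTAtatgaatatttt
KHSRP (chr19:6413230-6413259, minus strand): aatggtgattgaaATTTAcaaactttgtgt

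The ELAVL1 window held 4 pentamers, those of ZFP36L2 and TIA1 held 2, and the others held 1. Over its whole 3′ UTR of 4910 bases, ELAVL1 carried 13 pentamers and 5 heptamers, while genes with a 3′ UTR of like length (within 1.2 times) had a median of 11 pentamers. The 3 ZFP36 family transcripts carried 3 heptamers each, in 3′ UTRs of 708 (ZFP36), 1871 (ZFP36L1) and 1917 bases (ZFP36L2). Of genes with a 3′ UTR about as long as that of ZFP36, 22.9% held at least 1 heptamer, and at the length of ZFP36L1 41.3% did. TIA1 had 13 pentamers but 1 heptamer in 3275 bases, and TIAL1 had 5 pentamers and 1 heptamer in 2200 bases. HNRNPD (2 pentamers in 1687 bases) and KHSRP (1 in 1922 bases) carried no heptamer, so these 2 transcripts had the fewest of the 8. Of all 14405 genes with a 3′ UTR in the annotation, 35.2% held the heptamer. A match is a description of the letters and does not show that any protein binds there.

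In the annotation ZFP36 (ENSG00000128016) lies at chr19:39897487-39900052, ZFP36L1 (ENSG00000185650) at chr14:69254377-69262970 and ZFP36L2 (ENSG00000152518) at chr2:43449541-43453745 of GRCh37. KHSRP (ENSG00000088247) and ELAVL1 (ENSG00000066044) lie on chromosome 19 as well, at chr19:6413113-6424822 and chr19:8023457-8070543. HNRNPD (ENSG00000138668) is at chr4:83273651-83295656, TIA1 (ENSG00000116001) at chr2:70436576-70475792 and TIAL1 (ENSG00000151923) at chr10:121331314-121356541. TIA1 shares 39172 bases and its strand with C2orf42, which is in the table too, at means of 164 to 219 normalized reads per group. Reads from the shared stretch could be counted for either gene.

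The deposited values are read counts divided by 1 factor per library, here called normalized reads, and the libraries held 14094597 to 24425916 reads. Most marker genes followed the line labels, in CPM (reads scaled to a common library total). VIM, a mesenchymal filament, was at 5247 to 5694 CPM in MDA-MB-231 cells and no more than 2.19 CPM in MDA-MB-468. CDH1 (E-cadherin) was at 0.246 to 0.625 against 123 to 135 CPM. CD44, taken as a marker of MDA-MB-231, went the other way, at 928 to 1068 against 1490 to 1666 CPM. ESR1, the estrogen receptor gene, reached 0.170 CPM in MDA-MB-231 cells and 2.41 to 4.41 CPM in MDA-MB-468. Of genes taken to mark other cell types, PTPRC, the leukocyte marker CD45, stayed under 1 CPM in every library, and ACTA2 reached 3.40 CPM. CD68 was at 122 to 137 CPM in MDA-MB-231 cells and 1.10 to 2.41 in MDA-MB-468. COL1A1 was at 15.3 to 21.7 and 15.0 to 20.9 CPM, and PDGFRB at 11.6 to 15.5 and 0.275 to 0.955 CPM. Whether these reads came from other cells was not tested. The members had 327 to 11312 reads in a library, far above the 3 reads taken as the limit of detection.

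**Figure D1:**
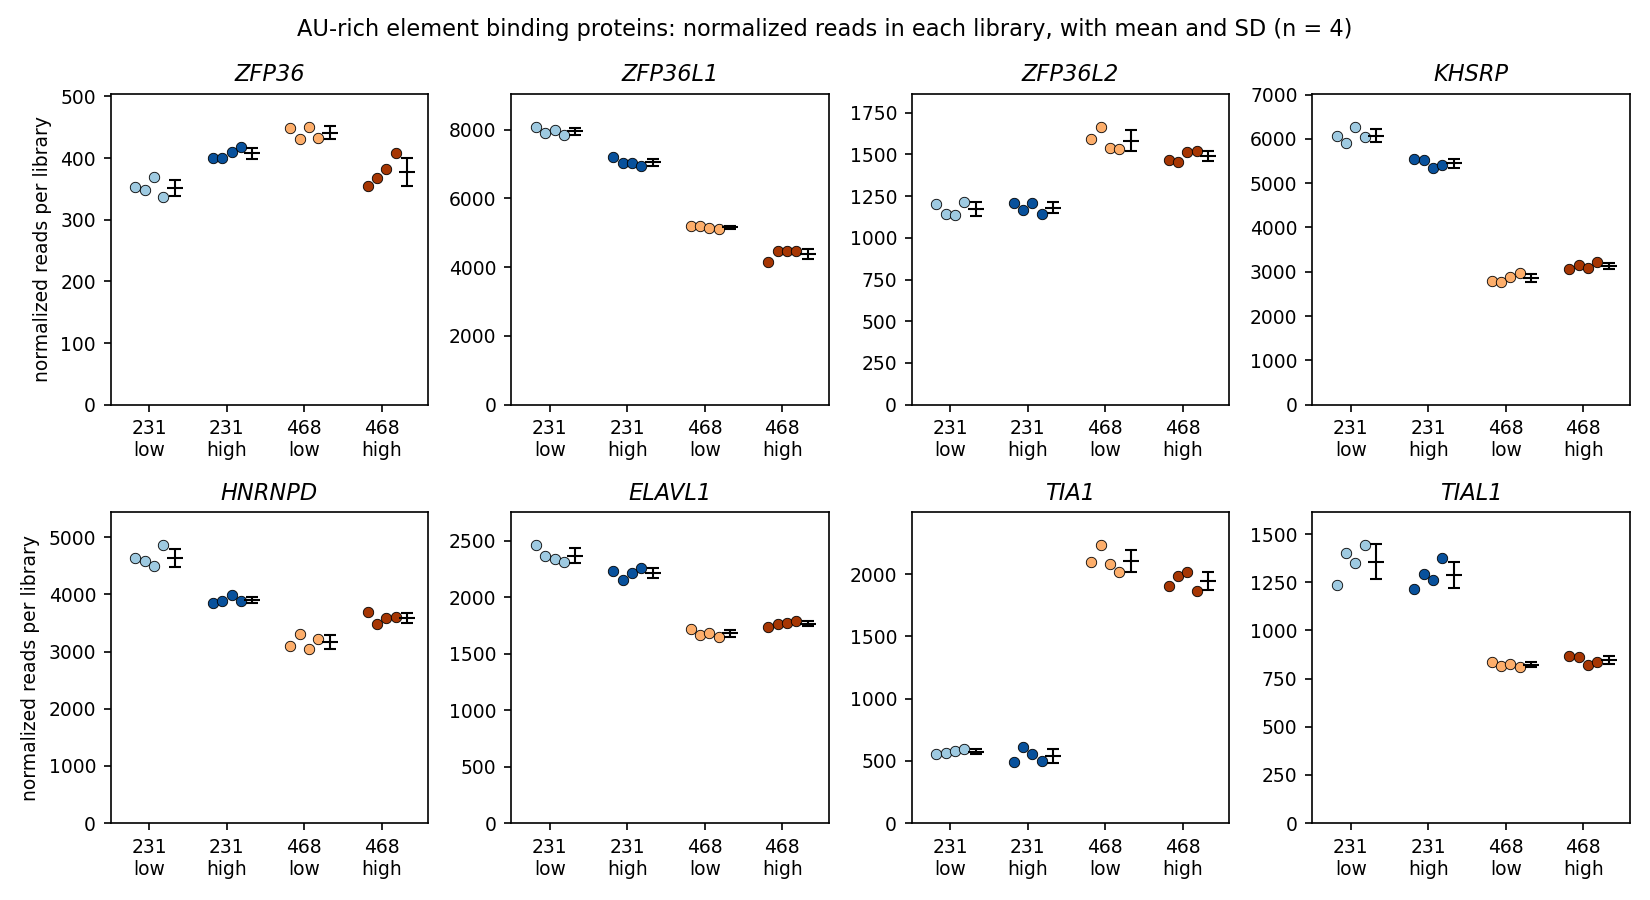
Normalized reads of the 8 genes in each library (y axes start at 0 and differ between panels), by line and glucose (x axes). Points are single libraries, and the bar beside them gives the mean and SD of 4. ZFP36 rose from 352 to 408 on average in MDA-MB-231 cells and fell from 441 to 378 in MDA-MB-468, while TIA1 averaged 2104 in MDA-MB-468 and 573 in MDA-MB-231 in low glucose.

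ZFP36 (tristetraprolin), the founding decay factor of the family and itself an immediate early gene, moved in opposite directions in the 2 lines. In MDA-MB-231 it gave 353, 348, 369 and 336 normalized reads in low glucose and 401, 401, 411 and 418 in high glucose. All 4 high-glucose libraries lay above all 4 low-glucose ones, a rise (log2 fold change 0.21 ± 0.06 SE, limma adjusted p = 0.0152). MDA-MB-468 gave 449, 431, 451 and 432 in low glucose and 355, 367, 382 and 408 in high glucose. Here the groups did not overlap either, but the high-glucose libraries were the lower ones, and ZFP36 fell (log2 fold change -0.22 ± 0.06, adjusted p = 0.00420). The difference between the lines, tested as the interaction of line and glucose, was -0.44 ± 0.07 on the log2 scale (adjusted p = 8.20e-05). The call in MDA-MB-231 was the less secure: with a replicate block and a correction for transcript length together its adjusted p was 0.0507.

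ZFP36L1, which shares the zinc fingers and the decay function, fell in both lines. In MDA-MB-231 it was at 8083, 7908, 7987 and 7849.7 normalized reads in low glucose and 7198, 7024, 7027 and 6949 in high glucose. MDA-MB-468 had 5188, 5185, 5154 and 5111 in low glucose and 4159, 4470.1, 4463 and 4462 in high glucose. Neither line showed overlap between its glucose groups, and every high-glucose library was lower. The log2 fold change was -0.17 ± 0.03 in MDA-MB-231 cells (adjusted p = 0.000183) and -0.23 ± 0.03 in MDA-MB-468 (adjusted p = 7.93e-06). The difference between these responses did not pass the test (-0.06, 95% interval -0.13 to 0.01, adjusted p = 0.195), but with quantile scaling it was -0.17 and was called (adjusted p = 0.00117). Replicate 1 of MDA-MB-468 in high glucose stood apart from the 3 other libraries of its group, which lay at 4462 to 4470.1.

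ZFP36L2, the remaining member of the family, passed the test in neither line. Its values in MDA-MB-231 were 1200.4, 1143, 1134 and 1213 in low glucose and 1209, 1164, 1208 and 1144 in high glucose, 2 overlapping groups. The log2 fold change there was 0.01 with a 95% interval of -0.07 to 0.10 (adjusted p = 0.903). In MDA-MB-468 the values were 1594, 1666, 1540.4 and 1532 in low glucose and 1469, 1457, 1512 and 1519 in high glucose. Those groups were separate by a narrow gap, and the log2 fold change of -0.09 ± 0.04 missed the threshold (adjusted p = 0.0631). With TMM scaling, quantile scaling, a correction for transcript length or GC content, or a fit over all 16 samples it passed.

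Per kilobase of transcript, ZFP36L1 made up most of the family's RNA. Its share of the summed level was 83.6% ± 0.179 (SD, n = 4) in MDA-MB-231 in low glucose and 80.9% ± 0.250 in high glucose. In MDA-MB-468 the shares were 71.5% ± 0.337 and 70.1% ± 0.650. ZFP36 held 6.38% ± 0.213 of the family in MDA-MB-231 in low glucose and 8.08% ± 0.252 in high glucose, and the libraries of these groups did not overlap (highest 6.67%, lowest 7.80%). In MDA-MB-468 the ZFP36 share was 10.6% ± 0.261 and 10.4% ± 0.400, with overlap. ZFP36L2 held 10.1% to 11.1% on average in the MDA-MB-231 groups and 17.9% to 19.5% in those of MDA-MB-468. The sum over the family was lower in high glucose in both lines, 3156 ± 38.3 against 2889.8 ± 38.5 reads per kilobase in MDA-MB-231 cells and 2391 ± 27.2 against 2074 ± 65.1 in MDA-MB-468.

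**Figure D2:**
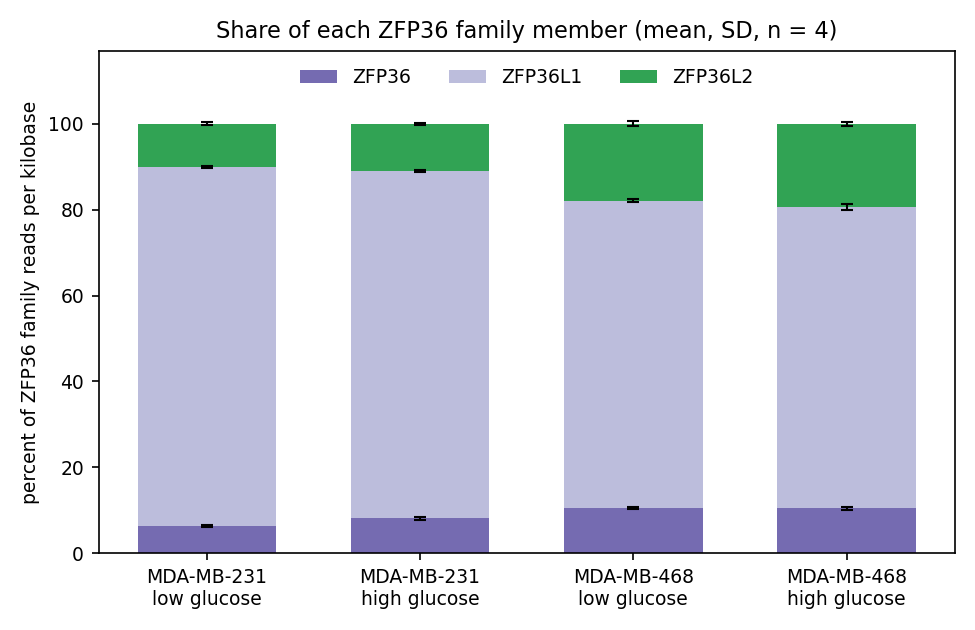
Share of ZFP36, ZFP36L1 and ZFP36L2 in the family's summed normalized reads per kilobase (y axis, percent) in each group, as means with SD over 4 libraries. ZFP36L1 held 83.6% in MDA-MB-231 in low glucose and 70.1% in MDA-MB-468 in high glucose.

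KHSRP, which binds AU-rich elements through its KH domains and recruits the decay machinery, fell in MDA-MB-231 cells and rose in MDA-MB-468. MDA-MB-231 had 6071, 5911, 6273 and 6036 normalized reads in low glucose and 5545, 5525, 5333 and 5406 in high glucose. The counts in MDA-MB-468 were 2790.0, 2773, 2881 and 2965 in low glucose and 3067, 3148, 3082 and 3209.8 in high glucose. In each line the glucose groups were separate, with the high-glucose libraries below the others in MDA-MB-231 cells and above them in MDA-MB-468. The log2 fold changes were -0.16 ± 0.03 (adjusted p = 0.00130) and 0.13 ± 0.03 (adjusted p = 0.00265), and the interaction was 0.29 ± 0.04 (adjusted p = 1.70e-05). With a correction for GC content the rise in MDA-MB-468 shrank to 0.05 and was not called (adjusted p = 0.170), while the interaction was called under all 28 alternatives.

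HNRNPD fell in MDA-MB-231 cells and rose in MDA-MB-468, and with ZFP36 it had the largest interaction of the 8 genes. In MDA-MB-231 it was at 4634, 4584, 4492 and 4859 normalized reads in low glucose and 3845, 3894, 3985 and 3892 in high glucose, and in MDA-MB-468 3094, 3301, 3044 and 3223 against 3687, 3477, 3594 and 3605. The means of the lines were 4643 ± 156 against 3166 ± 118 (SD, n = 4) in low glucose and closer, 3904 ± 58.2 against 3591 ± 86.6, in high glucose. HNRNPD fell by 15.9% in MDA-MB-231 cells (log2 fold change -0.25 ± 0.03, adjusted p = 2.54e-05) and rose by 13.5% in MDA-MB-468 (0.18 ± 0.03, adjusted p = 0.000262). The interaction of 0.43 ± 0.04 (adjusted p = 8.30e-07) and both calls within a line held under every alternative computed for them.

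The upstream sequences of KHSRP and HNRNPD are shown because these 2 genes both fell in MDA-MB-231 cells and both rose in MDA-MB-468. They are the 250 bases before the annotated RefSeq start site, on the gene's strand, from GRCh38.p14, and capitals mark the CCAAT box, the GC box GGGCGG, the E-box CACGTG and the TATA motif TATAAA, on either strand.

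KHSRP (chr19:6424812-6425061, minus strand): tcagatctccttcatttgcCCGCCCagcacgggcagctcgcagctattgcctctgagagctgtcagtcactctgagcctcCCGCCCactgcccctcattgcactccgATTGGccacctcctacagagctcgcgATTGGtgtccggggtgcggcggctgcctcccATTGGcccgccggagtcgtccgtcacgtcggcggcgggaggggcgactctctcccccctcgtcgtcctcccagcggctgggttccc
HNRNPD (chr4:82373992-82374241, minus strand): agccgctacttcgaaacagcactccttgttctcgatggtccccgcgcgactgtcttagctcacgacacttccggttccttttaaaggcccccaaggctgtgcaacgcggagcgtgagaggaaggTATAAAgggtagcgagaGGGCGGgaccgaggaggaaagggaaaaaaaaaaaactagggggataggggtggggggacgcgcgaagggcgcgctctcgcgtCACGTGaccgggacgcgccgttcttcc

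KHSRP held 3 inverted CCAAT boxes, first bases 143, 117 and 86 before the start, and 2 inverted GGGCGG boxes. Of 35116 RefSeq upstream stretches of the same length, 2.93% held 3 or more CCAAT on either strand and 24.3% held 2 or more GGGCGG. HNRNPD held no CCAAT but 1 CACGTG, the E-box core, 27 bases before the start, which 6.35% of all stretches held on either strand. It also had 1 GGGCGG (42.6% of all stretches) and 1 TATAAA (10.7%). The motifs shared by KHSRP and HNRNPD were therefore limited to GGGCGG. Of the 8 members 6 had an entry in the RefSeq table, and among the other 4 only ZFP36L1 held CCAAT, once, and none held CACGTG. The shared GC box was not limited to KHSRP and HNRNPD. ZFP36, which moved the other way in each line, held it 3 times, and each upstream stretch of TIA1 held it once. TIA1 also held the TATA motif once, and ZFP36L1 and TIAL1 held neither of these motifs.

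ELAVL1 had an interaction of the same sign as KHSRP and HNRNPD, but a smaller one. Its values were 2459, 2364, 2341 and 2308 normalized reads in MDA-MB-231 in low glucose and 2232, 2154, 2215 and 2258 in high glucose. In MDA-MB-468 they were 1715, 1667, 1684 and 1649 against 1736, 1759, 1767 and 1790.3. No high-glucose library overlapped the low-glucose ones of its line. Within a line neither change passed the test, at -0.10 ± 0.03 in MDA-MB-231 cells (95% interval -0.17 to -0.03, adjusted p = 0.0638) and 0.07 ± 0.03 in MDA-MB-468 (0.00 to 0.14, adjusted p = 0.0832). The former was called in 2 of 21 alternatives, a fit over all 16 samples (adjusted p = 0.0181) and without replicate 4 of the low-glucose group (adjusted p = 0.0266), and the latter in 4 of 21, among them a correction for transcript length, with which it was 0.12 (adjusted p = 0.00524). The difference between the lines did, at 0.17 ± 0.04 (adjusted p = 0.00166), and it did so under all 28 alternatives. The ratio of ELAVL1 to ZFP36 per kilobase went from 1.94 to 1.57 in MDA-MB-231 cells but from 1.10 to 1.35 in the other line. In each line both genes were separate between glucose groups and moved in opposite directions, so their log2 ratios could not overlap. They were 0.87 to 1.01 against 0.63 to 0.68 in MDA-MB-231 cells, and 0.11 to 0.16 against 0.34 to 0.50 in MDA-MB-468.

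TIA1, which represses translation, was called in MDA-MB-468 but not in MDA-MB-231. In MDA-MB-231 it gave 552, 559.7, 581 and 598 normalized reads in low glucose and 492, 614, 558 and 498 in high glucose, so that the highest and the lowest library both belonged to high glucose. The log2 fold change was -0.09 with a 95% interval of -0.23 to 0.05 (adjusted p = 0.425). In MDA-MB-468 it was at 2094, 2231, 2077 and 2015 against 1907, 1988, 2019 and 1865, groups that overlapped by 1 library on each side. The fall of 0.11 ± 0.04 on the log2 scale was called (adjusted p = 0.0238), but the call was lost in 5 of 21 alternatives: with a correction for GC content (adjusted p = 0.363), in a fit over all 16 samples, and without replicate 2 of the low-glucose or replicate 1 or 4 of the high-glucose group (adjusted p = 0.0772, 0.0630 and 0.0758).

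TIAL1, the paralog of TIA1, overlapped between glucose groups in both lines. Its normalized reads were 1235, 1402, 1351 and 1441 in low and 1214, 1293, 1264 and 1374 in high glucose for MDA-MB-231, and 837, 815, 824 and 808 against 865, 864, 822 and 834 for MDA-MB-468. The log2 fold changes were -0.08 (95% interval -0.18 to 0.03, adjusted p = 0.353) and 0.04 (-0.04 to 0.13, adjusted p = 0.408). A difference between the lines was not called either (0.12, 95% interval -0.02 to 0.25, adjusted p = 0.174). With a correction for GC content the value in MDA-MB-468 was 0.10 and was called (adjusted p = 0.0461). The difference between the lines was called with that correction (0.16, adjusted p = 0.0390), with a replicate block and a correction for transcript length together (adjusted p = 0.0449), and without replicate 1 of MDA-MB-231 in low glucose (adjusted p = 0.0341). The intervals still hold small changes in either direction.

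**Figure D3:**
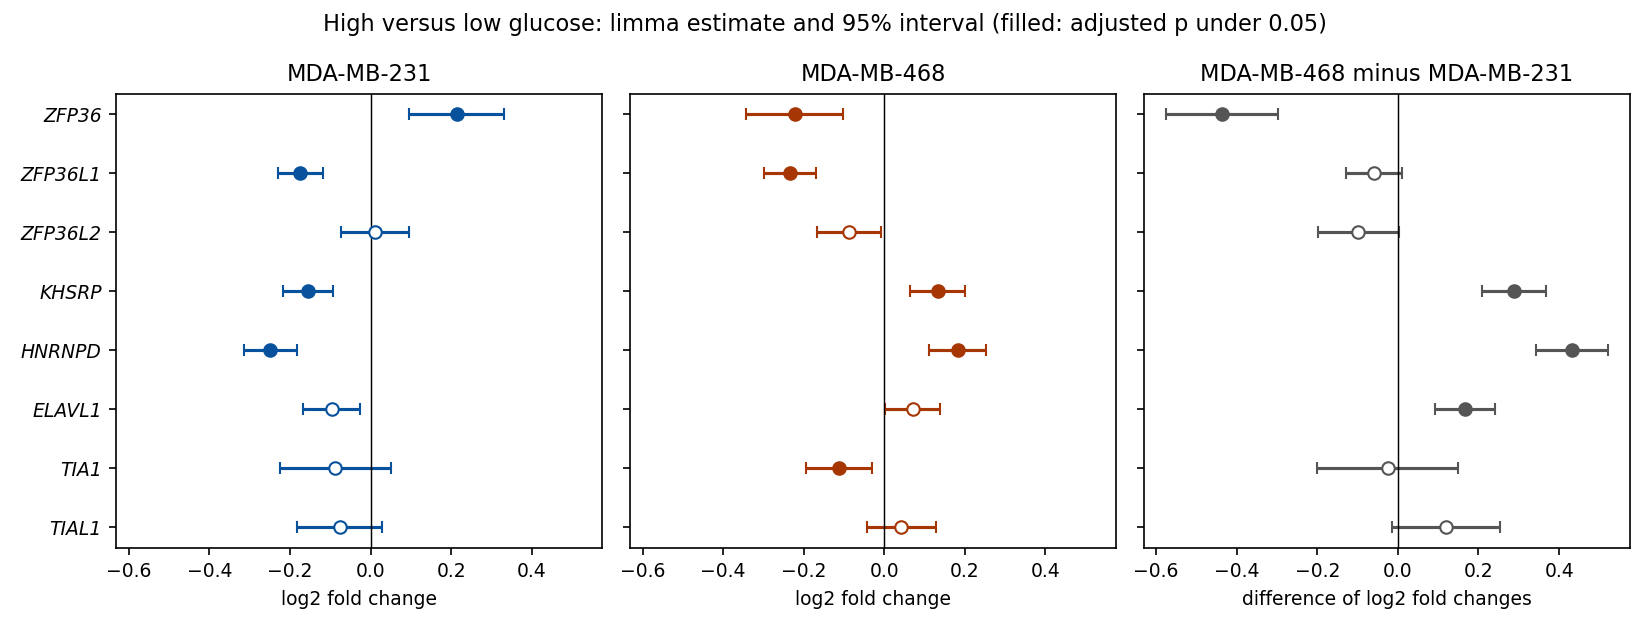
Log2 fold change, high against low glucose, of the 8 genes (y axis) in MDA-MB-231, in MDA-MB-468, and the difference between the lines (x axes). Bars are 95% intervals, and filled points have a limma adjusted p under 0.05. ZFP36 lies at 0.21, -0.22 and -0.44, and HNRNPD at -0.25, 0.18 and 0.43.

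In MDA-MB-231, 4 of the 8 members were called, 1 higher and 3 lower, against 15.1% of all 14884 genes tested (5.71% higher, 9.37% lower). Among genes of at least 20 CPM on average, which all members were, 21.9% were called. In MDA-MB-468, 5 of 8 were called, 2 higher and 3 lower, against 47.6% of 15757 genes (24.9% higher, 22.7% lower) and 59.4% of those of at least 20 CPM, so this count is near the background. With quantile scaling the calls of all genes in MDA-MB-231 were 1027 higher and 1114 lower, in place of 850 and 1395. Glucose groups without overlap were seen in 5 members in MDA-MB-231 cells and 6 in MDA-MB-468, against 18.7% and 42.5% of all genes. The interaction was called in 4 of 8 members, 3 higher and 1 lower in MDA-MB-468 relative to MDA-MB-231, beside 30.9% of 17115 genes (17% higher, 13.9% lower) and 44.3% of those of at least 20 CPM, again near the background. ZFP36, KHSRP and HNRNPD were called in both lines in opposite directions, as were 4.46% of the 13573 genes tested in both, and ZFP36L1 in the same direction, as were 4.88%. The median log2 fold change of the 8 was -0.09 in MDA-MB-231 cells and -0.02 in MDA-MB-468, where that of all genes was 0.00 in both.

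All 8 members differed between the lines in low glucose, 3 higher and 5 lower in MDA-MB-468, but 85.4% of 17115 genes did (45% higher, 40.4% lower) and 91.8% of those of at least 20 CPM. The largest difference was in TIA1, at 2104 ± 91.1 normalized reads in MDA-MB-468 and 573 ± 20.9 in MDA-MB-231 (SD, n = 4). This is a log2 difference of 1.87 ± 0.06 (adjusted p = 3.38e-15), with no library of one line in the range of the other. TIAL1 differed the other way, by -0.72 ± 0.04 (821 ± 12.6 against 1358 ± 89.4, adjusted p = 6.33e-11). The ratio of TIA1 to TIAL1 per kilobase was thus 0.349 in MDA-MB-231 cells and 2.11 in MDA-MB-468 in low glucose, and 0.346 and 1.90 in high glucose. KHSRP was lower in MDA-MB-468 by 1.09 ± 0.03 on the log2 scale (adjusted p = 9.94e-17), and ZFP36L1, HNRNPD and ELAVL1 were lower by 0.50 to 0.62. ZFP36 (0.33 ± 0.05, adjusted p = 4.69e-06) and ZFP36L2 (0.43 ± 0.03, adjusted p = 1.49e-09) were higher in MDA-MB-468. The ZFP36 difference was 0.15 with a correction for transcript length (adjusted p = 0.00301).

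Per kilobase of transcript, the scale on which genes can be compared, ZFP36L1 was the most abundant member in each group, from 1455 ± 50.7 reads per kilobase in MDA-MB-468 in high glucose to 2637 ± 33.5 in MDA-MB-231 in low glucose. HNRNPD and KHSRP followed, at 1513 ± 50.8 and 1420.2 ± 35.0 in MDA-MB-231 in low glucose, and in high glucose their means of 1272 ± 19.0 and 1275 ± 23.5 lay within the spread. In MDA-MB-468 KHSRP was well below HNRNPD, at 667 ± 20.8 against 1032 ± 38.3 in low glucose. The least abundant was TIA1 in MDA-MB-231 (124 ± 4.51 in low glucose), whereas TIAL1 (215 ± 3.29 in low glucose) and ZFP36 (216 ± 13.1 in high glucose) were lowest in MDA-MB-468. Between groups ZFP36 kept the narrowest range of means, 201 to 252 reads per kilobase, and its order was MDA-MB-231 low, MDA-MB-468 high, MDA-MB-231 high and MDA-MB-468 low glucose, where the first 3 overlapped with their neighbour.

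**Figure D4:**
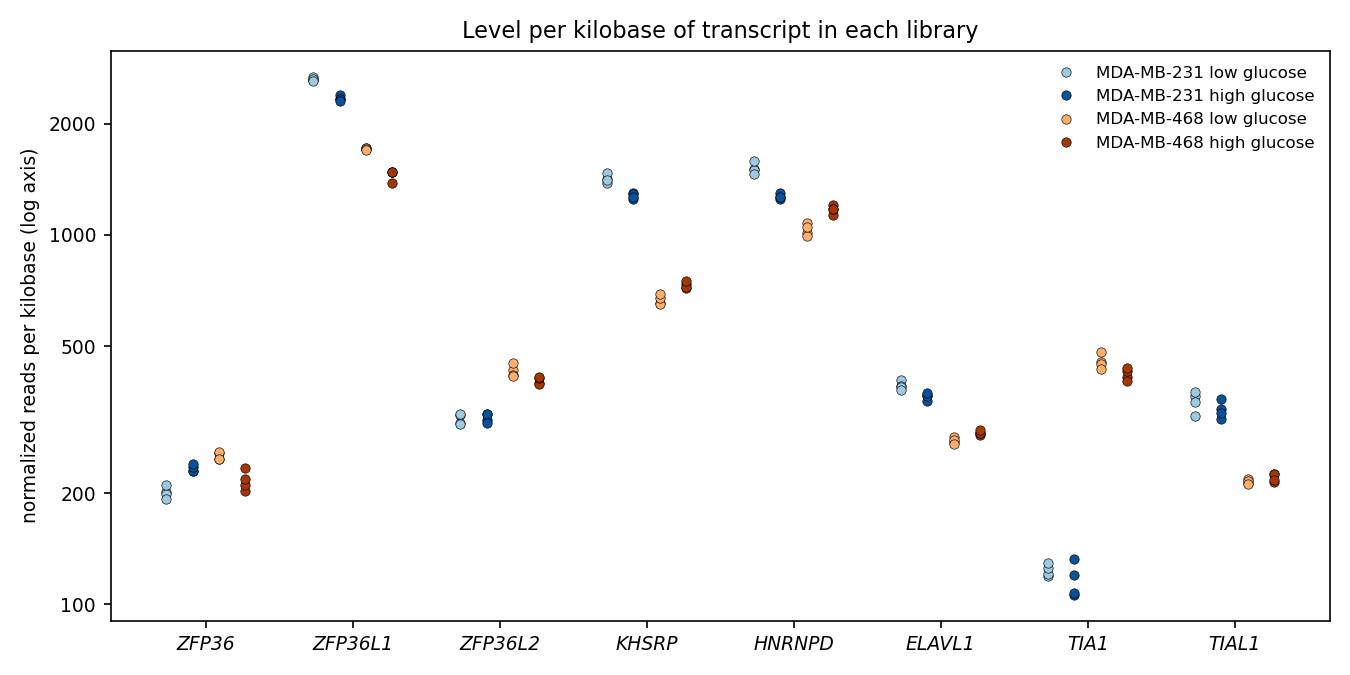
Normalized reads per kilobase of transcript (y axis, log scale) of the 8 genes (x axis) in each of the 16 libraries, coloured by line and glucose. ZFP36L1 lies highest in each group, and TIA1 changes rank between the lines, from 124 in MDA-MB-231 to 454 in MDA-MB-468 in low glucose.

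Among 20 other AU-rich element binding proteins in the table, 7 of 19 tested were lower and none was higher in MDA-MB-231 in high glucose, while in MDA-MB-468 5 were higher and 5 lower of 20 tested. Of all genes 9.37% were lower in MDA-MB-231 cells, and 24.9% were higher and 22.7% lower in MDA-MB-468, so the latter counts are near the background. The list's median log2 fold change was -0.09 and -0.03. HNRNPAB, a close relative of HNRNPD, fell in MDA-MB-231 from a mean of 2569 to 2197 normalized reads (-0.23 ± 0.03, adjusted p = 9.67e-05). Unlike HNRNPD, it was not called in MDA-MB-468 (-0.01 ± 0.03, adjusted p = 0.854). HNRNPDL, the other close relative, fell in MDA-MB-231 from 3415 ± 131 to 3138 ± 109 (-0.12 ± 0.04, adjusted p = 0.0288) and rose in MDA-MB-468 from 2468 ± 102 to 2778 ± 68.4 (0.17 ± 0.04, adjusted p = 0.000725). Its interaction was 0.29 ± 0.05 (adjusted p = 0.000228). NCL (nucleolin), a nucleolar protein that also binds AU-rich elements, moved likewise, with -0.16 ± 0.03 (adjusted p = 0.000274) in MDA-MB-231 cells and 0.08 ± 0.03 (adjusted p = 0.0355) in MDA-MB-468. HNRNPC rose in MDA-MB-468 (0.22 ± 0.03, adjusted p = 8.82e-06), and RBM3, a cold-inducible protein, fell there (-0.30 ± 0.05, adjusted p = 6.01e-05). In MDA-MB-231 this list had 4 calls with quantile scaling or with a correction for transcript length, in place of 7.

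In the decay machinery that these proteins recruit, the counts called are read against 15.1% of all genes in MDA-MB-231 cells and 47.6% in MDA-MB-468, and those of the deadenylases and the exosome in MDA-MB-468 are near that share. The deadenylase list holds CCR4-NOT subunits, other deadenylases and the TOB and BTG adaptors. Of its 17 genes tested in MDA-MB-231, 3 were higher, the adaptors TOB1, TOB2 and BTG1, and 2 were lower, CNOT1 and CNOT6L. The calls of TOB2 and CNOT1 were each lost in 3 of 21 alternatives, and that of CNOT6L in 1. Of 18 in MDA-MB-468, 4 were higher, among them CNOT11 and the adaptors TOB1 and BTG2, and 5 were lower. TOB1, an adaptor between RNA-binding proteins and the CCR4-NOT complex, rose in both lines, from 527 ± 19.3 to 705 ± 36.0 normalized reads in MDA-MB-231 cells (0.42 ± 0.05, adjusted p = 2.12e-05). In MDA-MB-468 it went from 652 ± 25.2 to 851 ± 54.5 (0.38 ± 0.05, adjusted p = 1.38e-05). BTG1, a related adaptor, rose in MDA-MB-231 cells (0.14 ± 0.03, adjusted p = 0.0106) and fell in MDA-MB-468 (-0.26 ± 0.04, adjusted p = 5.68e-05). Of the decapping and 5′ decay genes, 1 of 15 was called in MDA-MB-231, DCP2, and that call was lost in 9 alternatives. In MDA-MB-468 6 of 14 were higher, among them the small LSM ring subunits LSM5, LSM6 and LSM7 (0.26 to 0.41), and 4 were lower, among them the helicase DDX6 (-0.29 ± 0.03, adjusted p = 3.25e-06) and the scaffold EDC3 (-0.28 ± 0.05, adjusted p = 9.58e-05). For the exosome and its Ski cofactors, 1 of 16 genes was lower in MDA-MB-231 cells (EXOSC9, -0.26 ± 0.06, adjusted p = 0.00689), and 2 were higher and 4 lower in MDA-MB-468. The median log2 fold changes of the deadenylase, decapping and exosome lists were each -0.02 in MDA-MB-231, and -0.04, 0.10 and -0.06 in MDA-MB-468, beside 0.00 for all genes.

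The stress granule list of 12 genes holds granule proteins and the kinase EIF2AK3, described below. In MDA-MB-231 cells 1 was higher, which was EIF2AK3, and 2 were lower. In MDA-MB-468 3 were higher, EIF2AK3 among them, and 6 were lower. The shares of all genes called were 15.1% and 47.6% in the 2 lines (21.9% and 59.4% of those of at least 20 CPM). G3BP1, the granule nucleator, had the pattern of HNRNPD. It fell in MDA-MB-231 from 5946 ± 180.4 to 5337 ± 118 normalized reads (-0.16 ± 0.03, adjusted p = 0.00201) and rose in MDA-MB-468 from 3949.5 ± 148 to 4985 ± 102 (0.34 ± 0.03, adjusted p = 2.54e-07), with an interaction of 0.49 ± 0.04 (adjusted p = 1.68e-07). The fall of G3BP1 was not called with a replicate block and the length correction together (adjusted p = 0.0588). EIF2AK3 (PERK), a kinase whose activity triggers granule assembly, rose in both lines (0.19 ± 0.05 and 0.31 ± 0.05, adjusted p = 0.0165 and 8.33e-05), the former not without replicate 2 of the high-glucose group (adjusted p = 0.0644). Of 17 kinases, phosphatases and 14-3-3 proteins that act on the ZFP36 family, 1 was higher and 2 lower in MDA-MB-231 cells, and 6 were higher and 1 lower in MDA-MB-468, both near these shares. DUSP1, the phosphatase that shuts off p38 signalling to ZFP36, fell in MDA-MB-231 from 401 ± 34.6 to 267 ± 10.2 normalized reads (-0.58 ± 0.07, adjusted p = 1.36e-05) and was not called in MDA-MB-468 (0.03, adjusted p = 0.857), and this difference between the lines was called (0.61 ± 0.13, adjusted p = 0.00153). PPP2R1A and PPP2CB, subunits of the phosphatase that reactivates ZFP36, rose in MDA-MB-468 by 0.24 ± 0.04 and 0.25 ± 0.04 (adjusted p = 5.07e-05 and 5.02e-05). The stress granule list had median log2 fold changes of -0.07 and -0.03 in the 2 lines, and the kinase and phosphatase list -0.02 and 0.06.

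Among the transcripts best known for AU-rich elements, more were called lower than higher in high glucose. Of 32 tested in MDA-MB-231, 2 were higher and 13 lower, and of 26 tested in MDA-MB-468, 6 were higher and 12 lower. Of all genes 5.71% were higher and 9.37% lower in MDA-MB-231 cells, a balance that quantile scaling moves as given above, and 24.9% were higher and 22.7% lower in MDA-MB-468. The list's median log2 fold change was -0.13 and -0.20. CXCL8 (interleukin 8) fell in MDA-MB-231 from 220.0 ± 20.4 to 165 ± 13.4 normalized reads (-0.41 ± 0.09, adjusted p = 0.00428) and in MDA-MB-468 from 61.4 ± 9.03 to 20.8 ± 4.24 (-1.53 ± 0.19, adjusted p = 6.52e-06). CCND1 (cyclin D1) fell in both lines, by 0.20 and 0.29 on the log2 scale (adjusted p = 4.69e-05 and 2.45e-05). MYC fell in MDA-MB-231 (-0.23 ± 0.03, adjusted p = 3.46e-05). BIRC3, an inhibitor of cell death that is also an NF-kB target, fell in MDA-MB-468 from 1067 ± 49.2 to 406 ± 34.5 (-1.39 ± 0.06, adjusted p = 4.09e-11). CDKN1A (p21) rose in MDA-MB-468 from 547 ± 45.1 to 971 ± 71.8 (0.83 ± 0.06, adjusted p = 1.97e-08) and fell in MDA-MB-231 (-0.19 ± 0.03, adjusted p = 0.000811). ZFP36 itself belongs to this list and to the members.

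Read across all genes, a higher number of heptamers in the 3′ UTR went with a lower median response to glucose, but most of this was lost with a correction for transcript length. In MDA-MB-468 the median log2 fold change was 0.04 over 8384 genes with no heptamer, -0.03 over 2632 with 1, -0.06 over 1517 with 2 or 3, and -0.11 over 435 with 4 or more. The share of genes called lower was 29.6% with 1 heptamer and 42.3% with 4 or more, and from no heptamer to 4 or more the median 3′ UTR length went from 836 to 5125 bases. In MDA-MB-231 the medians were 0.01, -0.02, -0.03 and -0.04. After a loess correction for transcript length they were 0.01, 0.00, 0.00 and 0.01 in MDA-MB-231 cells and 0.01, -0.03, -0.03 and -0.03 in MDA-MB-468. After one for GC content they were 0.02, -0.01, -0.01 and -0.02, and 0.01, -0.03, -0.03 and -0.06. Within the class of longest 3′ UTRs in MDA-MB-468, from 2112 bases up, the medians were -0.01, -0.04, -0.07 and -0.10. Length was not constant there, as the median 3′ UTR still went from 3109 to 5643 bases. The longest class in MDA-MB-231, from 2175 bases up, had medians of -0.01, -0.02, -0.03 and -0.04. Genes also differ in base composition along these classes, with a median 3′ UTR AU content of 53.6% in MDA-MB-468 for no heptamer and 63.5% for 4 or more. Whether any of the 8 proteins takes part in these differences was not tested.

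**Figure D5:**
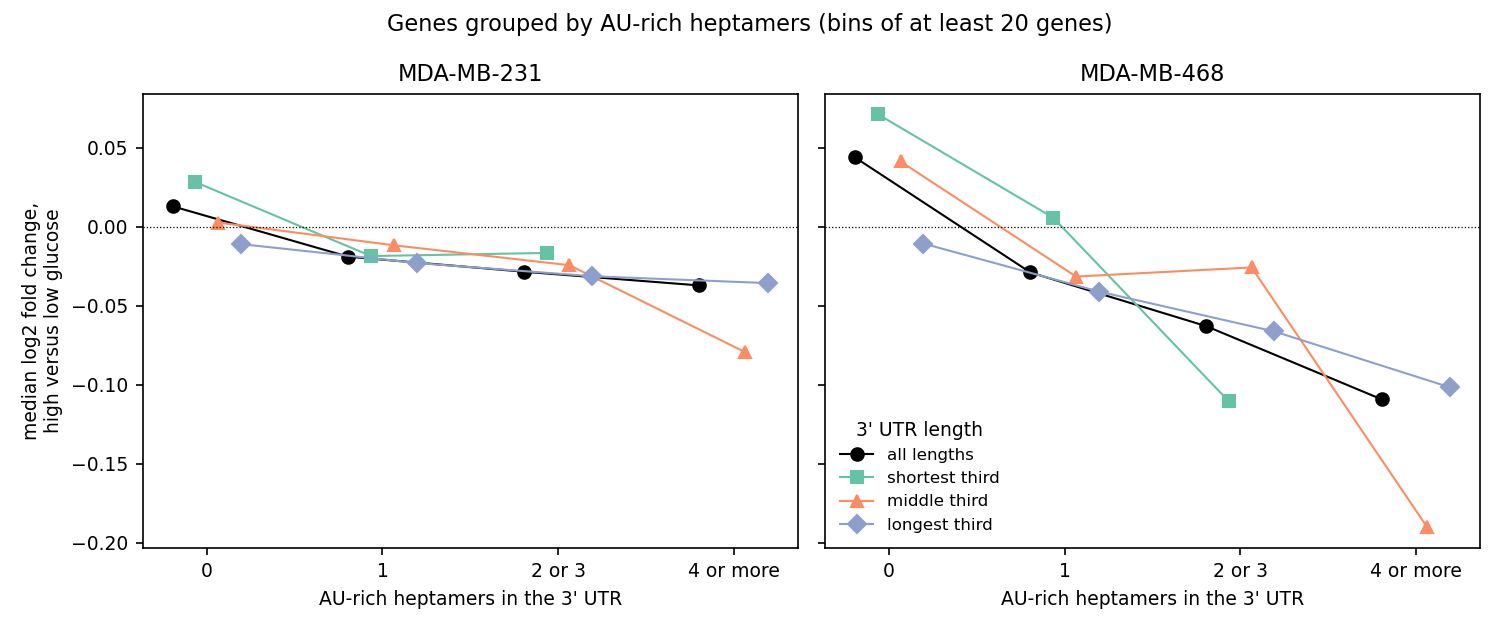
Median log2 fold change, high against low glucose (y axis), of genes grouped by the number of TATTTAT heptamers in the 3′ UTR (x axis), for all genes and within 3 equal classes of 3′ UTR length, for each line. Classes of at least 20 genes are drawn, before any correction for length, and in MDA-MB-468 the median over all lengths goes from 0.04 to -0.11.

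The genes whose profile over the 16 libraries was most like each member's were found among 11614 genes of at least 5 CPM, by the root mean square difference of log2 values centred on each gene's mean. The nearest to HNRNPD was HNRNPDL (0.05), its paralog, 48.1 kb away on chromosome 4, followed by RPA1 and HMGB1 (both 0.06). ELAVL1 was nearest to PGK1 (0.03), a glycolytic enzyme. For KHSRP the nearest was DDX24 (0.05), for ZFP36 it was STX10 (0.05), for ZFP36L1 WWTR1 (0.05), also known as TAZ, and for ZFP36L2 ADIPOR1 (0.04). TIA1 was nearest to BRCC3 (0.07) and then to HBS1L (0.08), and TIAL1 to DNAJB11 (0.05). Between members the closest pair was HNRNPD and ELAVL1 (0.09), where ELAVL1 ranked 48 among the genes nearest to HNRNPD, and the farthest was KHSRP and TIA1 (1.41). These differences hold the contrast between the lines as well as the response to glucose, and 4 groups of like libraries underlie all 16 points.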

How the data were processed

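RNA was isolated with a spin column kit and sequenced on an Illumina machine (HiSeq in the extraction text, NextSeq in the design text). The deposited table holds 1 signal per gene and library: the authors divided read counts by a factor per library, and whole reads could be recovered for 100% of values within 0.001 reads. The study's methods describe TopHat alignment to hg19, while the submitters' processing notes name hg38 and edgeR. The counting program and its use of strand are not given in the sources used here. Positions and 3′ UTRs of the members came from GENCODE for GRCh37 by gene ID, and upstream sequences from RefSeq (GRCh38.p14) by symbol, which matched 6 of 8 members. Of all genes, 17418 had a transcript length.

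Genes with at least 0.5 CPM in 2 samples were tested with limma 3.58.1 (R 4.3.3) on log2(value + 1), with Benjamini-Hochberg adjustment over all genes and a threshold of 0.05. Fold changes are on that scale, and intervals are 95%. Each line was fitted alone, and the interaction and the comparison of lines were fitted over all 16 samples. Alternatives were other pseudocounts and filters, TMM and quantile scaling, edgeR 4.0.16 and DESeq2 1.42.0 on the recovered reads, a replicate block, loess corrections for length and GC content, and leaving out each replicate. The fits were checked on simulated counts. In the text every member is given, and from each other list examples among the called genes with the 3 largest rises and falls per line. HNRNPAB, HNRNPDL, NCL, MYC, CCND1, CXCL8, DUSP1 and CDKN1A are also given in a line where they fall outside that rule. They were chosen after their values were seen. Members and lists were chosen with earlier results of these data known. ELAVL3, ELAVL4, IGF2BP1, DCP1A and the chosen marker genes PGR, CD3E and PECAM1 were not found in the table and are not analysed here. The background of genes of at least 20 CPM, the comparison with 3′ UTRs of like length, the corrected, rescaled and AU-content versions of the heptamer classes and the 250-base upstream stretch were chosen after seeing the data.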

Additional observations from a re-analysis of the deposited data

Results flagged for a closer look

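Replicate 1 of MDA-MB-468 in high glucose was far from the other libraries of its group for ZFP36L1, at 4159 normalized reads, with a gap to its neighbour of 0.975 of the group's range. Chance flags about 1 in 20 groups, and 32 groups (8 genes in 4 groups) were looked at. ZFP36L1 was called lower in MDA-MB-468 also without this library.

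The response to glucose differed between the lines, by the interaction test, for 4 of the 8 genes. The difference of log2 fold changes, MDA-MB-468 minus MDA-MB-231, was -0.44 for ZFP36, 0.29 for KHSRP, 0.43 for HNRNPD and 0.17 for ELAVL1.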

How the results depend on the processing

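Of the members' calls, the interactions of ZFP36, KHSRP, HNRNPD and ELAVL1, all 8 differences between the lines, the responses of ZFP36L1 and HNRNPD, the fall of KHSRP in MDA-MB-231 and that of ZFP36 in MDA-MB-468 kept their direction and their side of the threshold under each alternative. The number of members called ranged over the alternatives from 3 to 5 in MDA-MB-231, 4 to 7 in MDA-MB-468 and 4 to 5 for the interaction. The number of genes called ranged from 1624 to 3062 in MDA-MB-231 cells and, for MDA-MB-468, from 6632 to 7530.

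Only values near 0 turned sign. Leaving out 1 replicate, ZFP36L2 in MDA-MB-231 ran from -0.0050 to 0.027, with negative values without replicate 2 or 3 of the low-glucose group (-0.0013 and -0.0050) or 1 or 3 of the high-glucose group (-0.00020 and -0.00015). The interaction of TIA1 was 0.044 with the GC correction and ran from -0.068 to 0.038 with 1 replicate left out, positive without replicate 2 of MDA-MB-231 in high glucose (0.038) or of MDA-MB-468 in low glucose (0.0033). The causes were not tested.

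The correlation of same-numbered libraries' deviations was small, from -0.034 to -0.011 in MDA-MB-231 cells and from 0.019 to 0.031 in MDA-MB-468. In MDA-MB-468 replicates 1, 2 and 3 each matched their own number best, and in MDA-MB-231 none did. With the replicate block 4 members were called in MDA-MB-231 (1624 genes), 5 in MDA-MB-468 (7383 genes), 4 for the interaction (4774 genes) and 8 between the lines (14567 genes). Together with the length correction it gave 3, 6, 5 and 8 members.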
